A study of Caenorhabditis elegans with 2 samples.

Results

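Wnt and TGF-beta signalling genes of the nematode Caenorhabditis elegans were examined for binding of DMD-6, a DNA-binding protein of the DM-domain family. The members are 41 named genes, 22 of the Wnt pathway and 19 of the TGF-beta pathway, out of 19973 protein-coding genes on the nuclear chromosomes. They are listed by name for their place in a pathway, and the rule that lists them uses no measured value. The list was, however, chosen with earlier results of these data known. A gene was said to have a peak when the summit of a DMD-6 peak lay in a window reaching 1000 bp upstream and 200 bp downstream of any annotated start site of that gene.

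The worms were of strain RJP5356, whose dmd-6 gene on chromosome IV carries the CRISPR insertion rp168(dmd-6::GFP::AID::TEV::3xFLAG), so that the tagged protein is made from its own locus. They were starved as L1 larvae after bleaching to bring them into step and were collected whole as L4 larvae at 48 hours. The assay was ChIP-seq, in which fragments of sonicated chromatin bound to the protein are pulled down, here with an antibody against GFP per the description (another label field names dmd-6), and sequenced. There was 1 group of 2 biological replicates and no second condition, so each comparison sets some genes against others and no test across samples exists. Because whole worms were pooled, a site bound in few cells and a site bound weakly in many cells cannot be told apart. The labels do not give the sex of the worms.

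Wnt proteins are secreted ligands that bind Frizzled, Ryk and Ror receptors on other cells and act through Dishevelled proteins on beta-catenins, which enter the nucleus and work with a TCF factor. In worms they set the polarity of dividing cells, guide migrating neuroblasts and help to pattern the vulva and the tail. TGF-beta ligands bind pairs of receptor kinases that phosphorylate Smad proteins. In worms a Sma/Mab branch sets body size and patterns the male tail, and a dauer branch decides between growth and a resistant larval form.

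The list called from both replicates pooled, used below unless another is named, held 7338 peaks. That of replicate 1 held 6533 and that of replicate 2 held 4653. Read depth is unknown, and yield shows only in these peak numbers. The tagged gene itself held 3 peaks, all of them found in both replicates. Each peak has a signal, the authors' own value, for which the sources used here give no formula. Its scale differs between lists, so ranks within a list are given beside it.

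In the pooled list, genes for parts that act inside the cell had a peak more often than receptor or ligand genes. Ligand genes of the Wnt pathway had none. Of the 41 members, 14 had a peak (34.1%), against 19.1% of all protein-coding genes (3823 of 19973). In the Wnt pathway 5 of 22 members had one (22.7%), close to the share over all genes, and in the TGF-beta pathway 9 of 19 (47.4%). By role, the counts in the Wnt pathway were 0 of 5 ligands, 1 of 6 receptors and 4 of 10 intracellular components. In the TGF-beta pathway they were 2 of 5 ligands, 0 of 3 receptors and 6 of 8 intracellular components. Over both pathways, 10 of 18 intracellular components had a peak (55.6%), 1 of 9 receptors (11.1%) and 2 of 10 ligands. The share of ligands was thus close to the 19.1% of all genes. At that share, 5 genes are too few for the count of 0 at Wnt ligands to stand out. All of these are counts of small groups, with no test, and they take no account of differences in start sites between roles. The contrast between roles also depends on the list. In the smaller conservative list, 2 of 10 intracellular Wnt genes had a peak, against 17.7% of all genes. With any ranked entry, before a reproducibility threshold, 66.7% of receptors and 72.2% of intracellular components had one, against 40.6% of all genes.

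**Figure D1:**
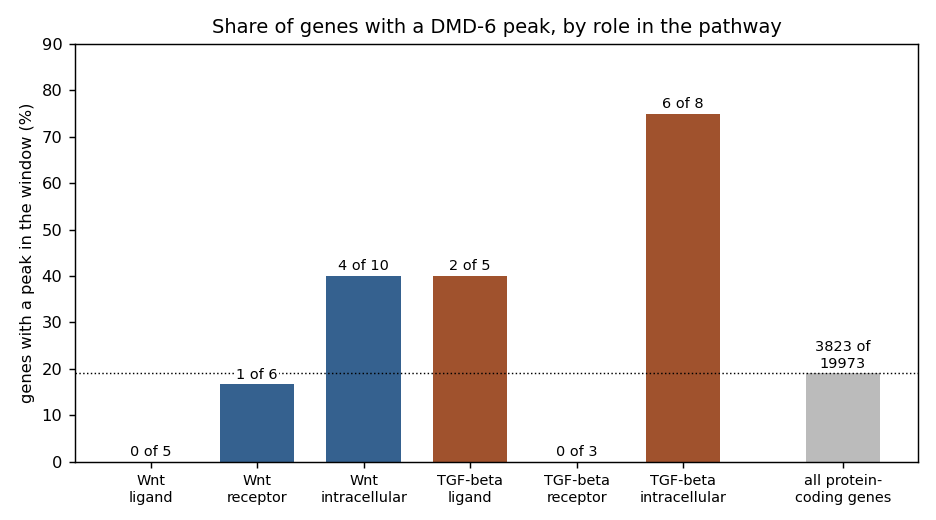
Percentage of genes with a DMD-6 peak in the window around a start site (vertical axis), for 3 roles in the Wnt pathway, 3 roles in the TGF-beta pathway and all protein-coding genes (right bar and dotted line). The intracellular components stand above the dotted line for both pathways (4 of 10 and 6 of 8 genes), while Wnt ligands and TGF-beta receptors stand at 0.

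Sequence at the summit is shown for 5 of the members with the strongest window peaks found in both replicates and not on the first chromosome, since the results rest much on these sites. Each is written 5′ to 3′ on the strand of its gene, from the RefSeq copy of assembly WBcel235. The intervals are chrII:15251815-15251915 (minus strand) for tig-3, chrIII:8749628-8749679 (plus) for sma-2, chrII:8185158-8185258 (minus) for mig-5, chrIII:5722019-5722119 (plus) for wrm-1 and chrIV:274360-274419 (plus) for sma-10. They reach 50 bp to each side of the summit, except that bases in annotated exons were left out, which shortens sma-2 to 52 bp and sma-10 to 60 bp. Capitals mark matches, on either strand, to any of 6 short words: ACAATG, the core of DM-domain sites; TGATAA, a site of GATA factors of the intestine; CTTTGA, the core of TCF sites; CAGAC, a Smad box; CACGTG, an E-box; and GAGAGA.
tig-3: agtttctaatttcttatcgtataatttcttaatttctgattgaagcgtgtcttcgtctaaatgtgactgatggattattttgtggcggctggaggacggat
sma-2: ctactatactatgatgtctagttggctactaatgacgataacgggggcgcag
mig-5: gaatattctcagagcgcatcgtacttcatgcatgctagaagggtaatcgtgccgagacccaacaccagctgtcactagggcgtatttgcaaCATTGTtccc
wrm-1: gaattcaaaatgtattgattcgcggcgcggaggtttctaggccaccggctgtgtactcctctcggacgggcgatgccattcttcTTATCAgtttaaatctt
sma-10: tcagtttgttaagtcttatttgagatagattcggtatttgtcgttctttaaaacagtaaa

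The DM-domain core occurred once among these 5 windows, near the downstream edge of the mig-5 window, and the tig-3, sma-2 and sma-10 stretches held none of the 6 words. Over the full window at all 20 member summits in a window, ACAATG was found at 2, those of mig-5 and dsh-2; it was found at 6.42% of all 7338 summits. TGATAA was found at 7 of the 20 and at 31.4% of all summits. Among the 7 were those of wrm-1 and sma-3 and the second, weaker sma-2 summit near an internal start site of ugtp-1. CAGAC was found at 5 of the 20 and at 17.5% of all summits, and GAGAGA at 2 of the 20 and at 19.4%. Neither the TCF word CTTTGA nor CACGTG was found at any of the 20; 6.08% and 6.88% of all summits hold them. A match is a run of letters in the window and does not show which protein was bound.

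Features of the genes other than their pathway also go with having a peak. A gene with more annotated start sites has a wider window, and the members average 2.22 start sites against 1.49 over all genes. The roles differ in this too. Every ligand gene has 1 or 2 start sites, while intracellular genes range from 1 to 7 and receptor genes from 1 to 6. The role counts were not split by start sites. Among genes with 1 start site, 5 of 19 members had a peak (26.3%), against 15.1% of all such genes. With 2 or 3 start sites the shares were 43.8% (7 of 16 members) and 27.8% of all such genes, and with 4 or more they were 33.3% (2 of 6 members) and 38.7%. The member share was thus above that of all genes in the first of these classes and in the second, and below it in the third. On chromosome I, 1 of 10 members had a peak, against 17.4% of all genes there, and elsewhere 13 of 31 did (41.9%), against 19.4% of all genes outside chromosome I. Of the 10 members on chromosome I, 9 belong to the Wnt pathway, so the pathway and the chromosome overlap in part in that difference. The other Wnt members lie elsewhere, among them bar-1, wrm-1, mig-5 and dsh-2, which had a peak. The counts were not split by pathway and chromosome together.

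The 5 Wnt ligand genes, lin-44, cwn-1, cwn-2, egl-20 and mom-2, had no peak in their windows, and none had an entry there even in the full ranked list, which keeps peaks before any reproducibility threshold. By that looser measure 22 of the 41 members had an entry (53.7%), against 40.6% of all genes. The distances from each start site to the closest summit were 32205 bp for lin-44, 22519 bp for cwn-1, 9172 bp for egl-20, 6706 bp for mom-2 and 4870 bp for cwn-2. The summit closest to cwn-2 lay 97 bp from the start of another gene, ipla-7. mig-14, the Wntless protein that carries Wnts to the cell surface, also had no entry in its window. The summit closest to mig-14 lay 3813 bp upstream, at a signal of 173, and was nearer to the start of another gene, R06B9.5 (1605 bp).

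Among the Wnt receptors only mig-1, a Frizzled gene, had a window peak, and it was a weak one. It lay at chrI:957368-957711, 84 bp upstream of the start site, at a signal of 89.2 (rank 5691 of 7338). Neither replicate held it after thresholding; the ranked lists gave a signal of 54.8 in replicate 1 and 38.3 in replicate 2, with −log10 IDR values of 1.53 and 1.40 where the threshold is 2. IDR, the irreproducible discovery rate, is a measure of how repeatable the rank of a peak is, and a high −log10 value marks a repeatable one. The mig-1 peak was thus called from the pooled replicates but from neither replicate by itself. The smaller conservative list, also called from the pooled replicates, kept it, but not the dsh-2 and bar-1 peaks described below.

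The other receptor genes had peaks farther out or none. The Frizzled gene mom-5 had a peak in both replicates 1782 bp upstream of its start, at a signal of 216 in the pooled list, beside 131 for replicate 1 and 81.2 for replicate 2. cam-1, the Ror receptor gene, had one in an intron 1937 bp upstream of its nearest start site, at a signal of 249 in the pooled list, beside 159 for replicate 1 and 85.4 for replicate 2. The Frizzled genes lin-17 and cfz-2 had only ranked entries below the threshold, and the closest summits lay 16361 bp and 31644 bp away. lin-18, the Ryk receptor gene, had no entry in its window and a closest summit at 5477 bp.

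Of the intracellular Wnt genes, those for Dishevelled (2 of 3) and the beta-catenins (2 of 4) had peaks, and those for the destruction complex (0 of 2) and the TCF factor pop-1 did not. These groups hold 1 to 4 genes, and 19.1% of all genes had a peak. With peaks found in both replicates, Dishevelled and the beta-catenins had 1 gene each, against 2392 of the 19973 genes. The strongest belonged to mig-5, a Dishevelled gene, at chrII:8185101-8185311, 185 bp upstream of the start. Its signal was 362 in the pooled list (rank 754), beside 193 (rank 988) for replicate 1 and 161 for replicate 2 (rank 644). The same summit lay in the window of cct-1, a chaperonin subunit gene transcribed the other way, so the peak cannot be assigned to mig-5 alone. dsh-2, another Dishevelled gene, had a weak peak 191 bp upstream (chrII:5081193-5081536), at a signal of 75.4 in the pooled list and 47.1 in replicate 2 and no peak in replicate 1. The dsh-2 peak was not in the conservative list. dsh-1, the third, had a peak found in both replicates 2632 bp upstream, at a signal of 173, outside the window. That summit was nearer to the start of another gene, EGAP2.2 (1880 bp), and lay near a start of C34F11.10, a gene not annotated as protein-coding.

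wrm-1, a beta-catenin of asymmetric cell divisions, had a peak at chrIII:5721975-5722171, 781 bp upstream of its start. Its signal was 317 in the pooled list (rank 1023), beside 173 (rank 1262) for replicate 1 and 125 for replicate 2 (rank 1085). bar-1, the beta-catenin of canonical Wnt signalling, had a peak at chrX:7170886-7171229, 433 bp upstream, at a signal of 116 in the pooled list and 96.1 in replicate 1. In replicate 2 the bar-1 site had only a ranked entry at a signal of 23.5 and a −log10 IDR of 0.63. The bar-1 summit also lay near a start of F43E12.4, a gene not annotated as protein-coding. Of these beta-catenins, wrm-1 was therefore found in both replicates and bar-1 in replicate 1 only. The conservative list kept the wrm-1 peak and not the bar-1 peak.

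The other intracellular Wnt genes missed the window by varied distances. pop-1 had a peak 1485 bp upstream, at a signal of 203 in the pooled list, 156 in replicate 1 and none called in replicate 2. pry-1, an Axin, had one 1930 bp upstream at a signal of 95.7, and hmp-2, the beta-catenin of cell adhesion, had one 1382 bp upstream at a signal of 83.5 that was 202 bp from the start of another gene, K05C4.7. sys-1, a beta-catenin that acts with POP-1, had no summit in the gene or in the 5000 bp upstream of it. The closest one lay 167 bp past its 3′ end, at a signal of 388, and was 234 bp from the start of eif-3.C, a translation factor gene. apr-1, the APC gene, had its closest summit 25315 bp away.

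**Figure D2:**
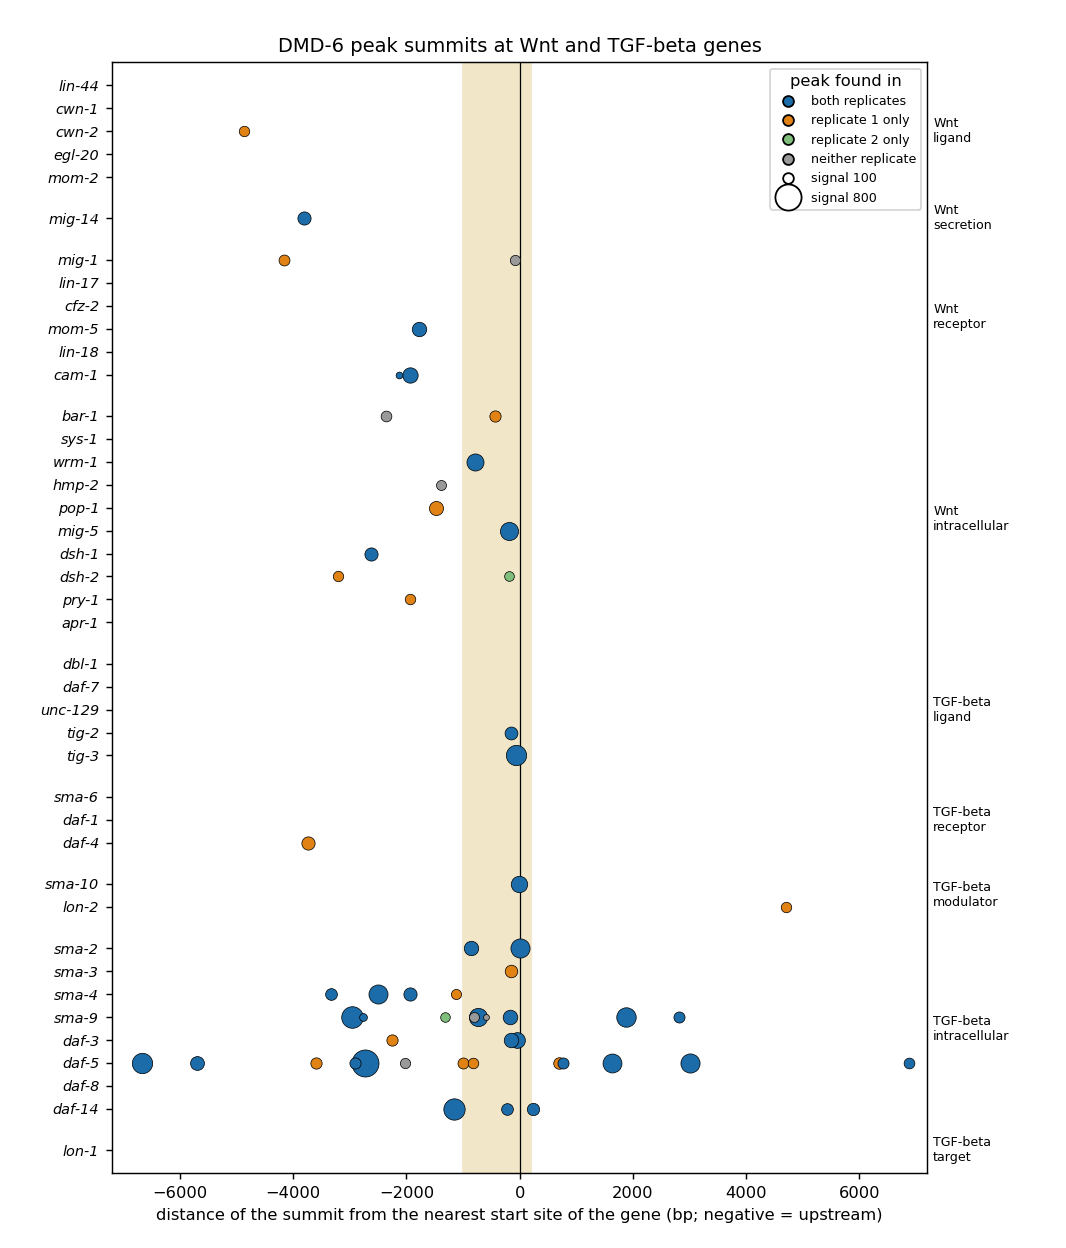
Each row is a member gene, grouped by pathway and role, and each circle is a peak summit between 5000 bp upstream of the gene and its 3′ end. The horizontal axis is the distance in bp from the nearest start site of that gene, circle area grows with signal in the pooled list, colour shows the replicates in which the peak was found, and the shaded band is the window that defines a peak at a gene. Wnt ligand rows are empty in the band, and daf-5 and sma-9 hold 22 of the 57 circles.

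The TGF-beta ligand genes fell into those with a clear peak at the start and those with nothing near. tig-3 had the strongest window peak of all members, at chrII:15251701-15252061, 73 bp upstream of its start. Its signal was 463 in the pooled list (rank 417), beside 279 (rank 391) for replicate 1 and 177 for replicate 2 (rank 508). tig-2 had a peak 154 bp upstream (chrV:4730143-4730486), at a signal of 162 in the pooled list (rank 3092), beside 83.6 for replicate 1 and 73.4 for replicate 2. dbl-1, the ligand of the Sma/Mab branch, daf-7, that of the dauer branch, and unc-129, which acts in axon guidance, had no entry in any window. Their closest summits lay 21116, 18064 and 25383 bp away. With the Wnt ligands, 8 of the 10 ligand genes thus had no entry in the window in the ranked list. The other 2 had one, beside 40.6% of all genes, most of which thus also had no entry. The group is small and the difference was not tested.

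None of the receptor kinase genes had a window peak in the pooled list. daf-1, a type I receptor of the dauer branch, had a ranked entry at a signal of 83.9 and a −log10 IDR of 1.77, under the threshold of 2, and it had a peak in the conservative list. daf-4, the type II receptor shared by both branches, had 6 ranked entries in its window, none past the threshold, and a peak 3746 bp upstream at a signal of 175. sma-6, the type I receptor of the Sma/Mab branch, had no entry in its window; the closest summit lay 162 bp past its 3′ end, at a signal of 355. Of the genes that tune the ligand outside the cell or at its surface, sma-10, a membrane protein that promotes Sma/Mab signalling, had a peak and lon-2, a glypican that restrains it, did not. The sma-10 peak lay at chrIV:274247-274538 with its summit 10 bp upstream of a start site, and had a signal of 291 in the pooled list (rank 1204), beside 178 for replicate 1 and 117 for replicate 2. lon-1, a secreted protein that acts downstream of the Smads, had its closest summit 24398 bp away.

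In the TGF-beta pathway, peaks were found at genes for Smads (4 of 6) and for the proteins that work with them (2 of 2), against 19.1% of all genes. sma-2, a receptor-activated Smad of the Sma/Mab branch, had its summit 2 bp upstream of a start site (chrIII:8749540-8749829), at a signal of 409.8 in the pooled list (rank 554), 248 in replicate 1 (rank 544) and 166 in replicate 2 (rank 594). A second sma-2 peak, 860 bp upstream, had a signal of 215 in the pooled list, beside 128 for replicate 1 and 87.1 for replicate 2. Both lay inside ugtp-1, in intron sequence, and in the window of an internal start site of that gene, which is transcribed the other way. The second was nearer to that ugtp-1 start site (119 bp) than to that of sma-2. sma-3, the partner Smad of SMA-2, had a peak 161 bp upstream (chrIII:6863957-6864300), at a signal of 152 in the pooled list and 87.2 in replicate 1; replicate 2 had no entry there, even before thresholding. sma-4, the co-Smad, had no window peak, but 4 peaks lay upstream of it, of which the closest was at 1117 bp at a signal of 86.4 and the strongest at 2501 bp at a signal of 405. Another gene, R12B2.7, has the start site nearest to each of those 4.

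Of the dauer Smads, daf-3 and daf-14 had window peaks and daf-8 did not. daf-3, the co-Smad that DAF-7 signalling restrains, had peaks at internal start sites. One lay 56 bp upstream of a start site in an intron (chrX:823806-823989), at a signal of 263 in the pooled list, beside 175 for replicate 1 and 88.5 for replicate 2. The other lay 147 bp upstream of a later start site, at a signal of 218 in the pooled list, beside 149 for replicate 1 and 66.4 for replicate 2. daf-14, a receptor-activated Smad, had a window peak 216 bp upstream of an internal start site (chrIV:10253278-10253621), at a signal of 128.6 in the pooled list, beside 83.8 for replicate 1 and 52.4 for replicate 2. Its strongest peak lay just outside the window, 1151 bp upstream of the same start site, at a signal of 518 in the pooled list (rank 295), beside 275 for replicate 1 and 233 for replicate 2. daf-8, the other receptor-activated Smad of the branch, had only a ranked entry at a signal of 22.1 and a closest called summit 13096 bp away. By branch, 4 of 10 Sma/Mab genes and 3 of 7 dauer genes had a peak, counting daf-4 in both, against 19.1% of all genes. The daf-3 and daf-14 peaks lie at internal start sites. With the start of the gene model alone, 2 of 6 Smads and 1 of 7 dauer genes thus had a peak, against 17.4% of all genes.

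**Figure D3:**
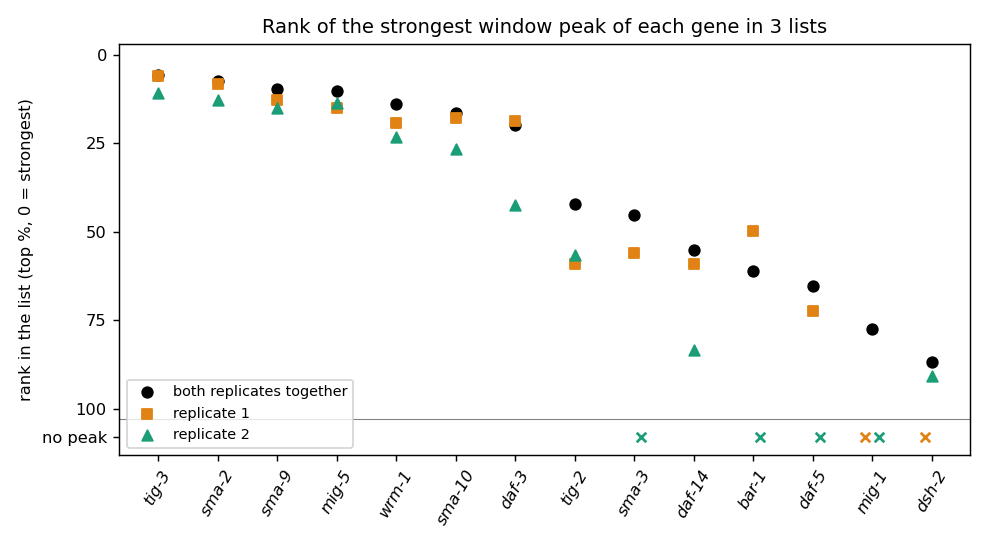
Rank, as a percentage of the list with 0 the strongest, of the strongest window peak of each of the 14 members with one, in the list called on both replicates together (circles), in that of replicate 1 (squares) and in that of replicate 2 (triangles); crosses mark a list with no peak there. tig-3 is at 5.68% in the pooled list, and the genes with a cross are all beyond 45% there.

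Of the 14 members with a peak, 9 had one found in both replicates: mig-5, wrm-1, tig-2, tig-3, sma-10, sma-2, sma-9, daf-3 and daf-14. Over all genes with a peak, 62.6% had one found in both. Of the 14, 2 shared a peak with another protein-coding gene, against 33.9% of all genes with a peak. Other kinds of gene were left out of this count. Such genes had a start near the bar-1 summit (F43E12.4) and near the sma-9 window summits upstream of the gene (T05A10.8). More than 1 window peak was found at 4 of the 41 members, against 2.90% of all genes, and sma-9 had 4, a number reached by 0.110% of all genes; 2 of those 4 were found in neither replicate. The window peaks of sma-3, bar-1 and daf-5 were found in replicate 1 only, that of dsh-2 in replicate 2 only and that of mig-1 in neither. The median signal of the strongest window peak was 212 over the 14 members and 159 over the 3823 genes with a peak. All 20 member summits lay upstream of the nearest own start site, as did the nearest summit of 91.3% of all genes with a peak, in a window that is mostly upstream. At the edge of the window, the summit farthest inside belonged to daf-5 (996 bp upstream, signal 109) and the nearest outside on that side to sma-4 (1117 bp upstream, signal 86.4). On the downstream side a daf-14 peak with a signal of 146 lay 237 bp past the start, just outside.

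The genes for the Smad partners held the most peaks, mainly away from the annotated starts. The search took in the gene and the 5000 bp upstream of it. There, 25 of the 41 members had at least 1 peak (61.0%), against 36.9% of all genes, and members are longer, with a median of 4464 bp against 2027 bp over all genes. daf-5, a Sno/Ski-type protein that acts with DAF-3, had 13 peaks, and sma-9, a zinc-finger protein of the Schnurri type, had 9. Only 0.0150% of all genes had 13 or more (3 of 19973) and 0.100% had 9 or more (20). Both genes are long, at 19089 and 13692 bp. Among genes at least as long, 0.909% had 13 or more (2 of 220, daf-5 included) and 3.12% had 9 or more (16 of 513, sma-9 included).

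The strongest peak at any member lay in the first intron of daf-5, at chrII:14040125-14040774. Its signal was 856 in the pooled list (rank 46), beside 438 (rank 72) for replicate 1 and 404 for replicate 2 (rank 30). It lay 11859 bp into the gene and 2724 bp upstream of the second start site, outside the window. Of the 13 peaks, 9 were in introns and 8 were found in both replicates. The next 3 by signal, at 468, 409 and 399, were also intronic and in both replicates. The daf-5 peaks that counted for the window were weaker, with signals of 109 and 96.8, and both were found in replicate 1 only.

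sma-9 had its strongest peak 2965 bp upstream of the gene (chrX:10766112-10766596), at a signal of 531 in the pooled list (rank 271), beside 317 for replicate 1 and 204 for replicate 2. An intronic peak 1887 bp into the gene had a signal of 424 in the pooled list, beside 228 for replicate 1 and 196 for replicate 2. The peaks that counted for the window lay 740 and 173 bp upstream of an internal start site, with signals of 371 and 219 in the pooled list, and 804 and 603 bp upstream of the first start site. The last of these had a signal of only 3.14 (rank 7336 of 7338), and its summit was 201 bp from that of the peak at 804 bp, which had a signal of 80.5; neither was found in a replicate list. Each of the 4 counts as a summit of its own here, and 6 of the 9 sma-9 peaks were found in both replicates, 1 of them a second summit in the interval of the strongest peak.

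**Figure D4:**
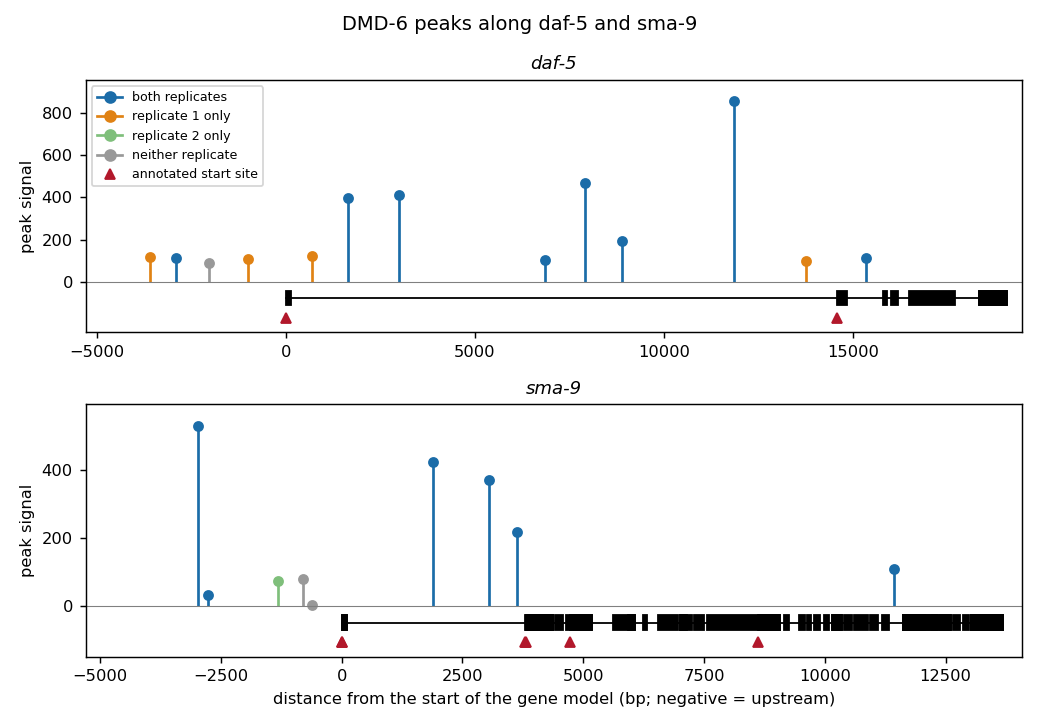
Peaks along daf-5 (top) and sma-9 (bottom), with height as the signal in the pooled list (vertical axis) against distance in bp from the start of the gene model (horizontal axis); black boxes are exons of all transcripts, red triangles are annotated start sites and colour shows the replicates in which each peak was found. The tallest daf-5 peak stands at 856 in the first intron, and the tallest sma-9 peak stands at 531 upstream of the gene.

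Other peak sets and windows changed how many members had a peak, and in the next 3 settings the share of members with one was above that of all genes. Among the 1000 strongest peaks, 4 of the 41 members had one, against 3.17% of all genes. With 2000 bp upstream in place of 1000 bp, 20 members had a peak, against 24.1% of all genes. With each summit assigned to 1 gene by the closest start, 18 did, against 20.1% of all genes. The added genes in these wider searches were mom-5, cam-1, pop-1 and pry-1, and by distance alone also hmp-2 and sma-4.

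Without daf-5 and sma-9 the members held 0.878 peaks per 10 kb of searched sequence, and with them the figure was 1.29. Over the whole genome there were 0.732 per 10 kb. That figure also takes in sequence away from genes, and a like figure for the searched regions of all genes is not given here. The 22 Wnt members held 17 peaks in all and the 19 TGF-beta members 40, of which daf-5 and sma-9 held 22. Over all 57 summits, 59.6% were found in both replicates, against 58.5% of the whole list.

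Other genes of the pathways were counted in the same way. Of 25 further Wnt genes, 5 had a peak, beside 19.1% of all genes. By signal they were mom-1, the Porcupine enzyme that adds lipid to Wnts (213; its peak is shared with lev-9 and lies within 200 bp of a tRNA gene), tap-1, a relative of the kinase partner TAB1 (154; shared with C44H4.4), lit-1, the Nemo-like kinase (143), vps-35 of the retromer (75.8) and snx-3, a sorting nexin (72.5; shared with rad-54.L). Of the 25, 3 had a peak found in both replicates, against 2392 of the 19973 genes, and the vps-35 and snx-3 peaks were in replicate 1 only. Of 15 further TGF-beta genes, 4 had a peak found in both replicates, and the bra-1 peak was in replicate 1 only. In all, 5 of the 15 had a peak (33.3%). These were kin-29, a kinase that acts in Sma/Mab signalling (227), blmp-1, a zinc-finger factor (160.2), tsp-21, a tetraspanin (142), unc-40, a netrin receptor of the DCC and neogenin family (107.9; shared with npp-7), and bra-1, a receptor-associated protein (85.3).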

How the data were processed

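ChIP-seq of tagged DMD-6 in L4 worms was given as 8 peak lists on assembly ce11, per the file headers and accompanying descriptions: 2 replicates with 1 thresholded and 1 ranked list each, and 4 lists called from the pooled replicates (the main thresholded list, a smaller conservative one, and a ranked list for each). Aligner and peak caller: not given in the sources used here. A deposited score per peak, set by the authors, runs from 830 to 1000 in thresholded lists and was not used to choose peaks. The deposited signal is the authors' value per peak, used for ranks within a list. In ranked lists, a deposited column holds −log10 IDR values (global), as the authors describe the layout; thresholded peaks have at least 2. Replicate numbers come from the labels; read depth is unknown.

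The summit (an offset from the peak start) was compared with all transcript starts of protein-coding genes in Ensembl release 115, WBcel235. Peak ends lay within the chromosome lengths of the RefSeq copy of that assembly. A peak was found in a replicate when it overlapped a thresholded peak of it by at least 1 bp. All 41 members are reported; values are given in full for those with a window peak. Of the other pathway genes, up to 6 per pathway with a peak are named by signal. The members, lists and words were chosen with earlier results of these data known. The sequence of 1 peak that the rule would show is not reported here. Functions were tested on simulated data. Python 3.11.15, numpy 2.4.6, pandas 2.3.3 and matplotlib 3.10.9 were used.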

Additional observations from a re-analysis of the deposited data

How the results depend on the processing

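Other peak lists, windows and thresholds were tried. In the stricter settings the member counts fell with the share over all genes. With peaks found in both replicates, 9 of 41 members had one (2 Wnt, of which 0 receptors and 2 intracellular), against 2392 of the 19973 genes. Among peaks above the median signal the counts were 9, 2, 0 and 2, against 11.1% of all genes. Among the 1000 strongest peaks 4 members had one, against 3.17% of all genes: 1 Wnt (0 receptors, 1 intracellular) and 3 TGF-beta (1 ligand, 2 intracellular). In the conservative list 13 members had one, against 17.7% of all genes, with 3 Wnt genes (2 intracellular) and 1 TGF-beta receptor, daf-1. With any ranked entry 22 members had one, against 40.6% of all genes. They were 10 Wnt (4 receptors, 6 intracellular) and 12 TGF-beta genes (2 receptors, 7 intracellular). Over both pathways 66.7% of receptors and 72.2% of intracellular components had an entry, so the contrast between these roles depends on the threshold. With a window from 2000 bp upstream to 200 bp downstream, 10 Wnt genes had a peak (3 receptors, 7 intracellular), against 24.1% of all genes. Assigning every summit to a single gene, the closest by start site within 2000 bp, gave 9 Wnt genes (3 receptors), against 20.1% of all genes. Leaving out replicate 1 gave 10 members, against 13.0% of all genes, and leaving out replicate 2 gave 13, against 18.2%, with 3 Wnt genes each time, 0 Wnt receptors and, for TGF-beta, 7 to 10 genes (1 to 2 modulators, lon-2 being added). The number of peaks limits each count, and depth is unknown. mig-5, tig-3, sma-2 and sma-9 had a peak in all 13 settings, and the Wnt ligands in none. Windows of 500 and 100 bp, gene-model starts alone and removal of summits near tRNA genes left the counts over all members, per pathway and per role within 1.5 times, and a stricter overlap left the 9 members found in both replicates at 9. Smaller groups moved more: over the 12 alternatives the members with a peak ranged from 1 to 5 for Smads, 1 to 2 for their partners, 1 to 3 for Dishevelled, 0 to 3 for beta-catenins, 2 to 5 for the Sma/Mab branch and 0 to 6 for the dauer branch. Windows of 500 and 100 bp left 1 Smad partner and 1 beta-catenin. No paired analysis was possible because there is 1 group.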
